A study of Mus musculus with 72 samples.

Results

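The integrations described here belong to the largest clones of 6 pools of mouse embryonic stem cells, taken as the reporters whose barcodes held the largest share of the barcode reads from genomic DNA. In each pool, the integrations on chromosomes 1 to 19 were ranked by their DNA share, which is the DNA count of a barcode divided by the DNA total of the pool and averaged over 2 cultures, and the top 2% were kept. This gave 347 members of 17500 integrations on these chromosomes (17857 with all chromosomes), and the remaining 17153 are called the rest. The members numbered 53 in mPGK-A, 62 in mPGK-B, 49 in mPGK-C and 61 in each of mPGK-D, mPGK-E and mPGK-F. The DNA counts of both cultures chose the members, so the DNA shares of the members, their ratios of RNA to DNA over both cultures and the agreement of these between cultures are a description. Where the report gives a p for a difference in ratio between members and rest, the members were chosen in a culture other than the one that gave the ratio.

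The cells were of the line EBRTcH3, in which the endogenous Rosa26 promoter drives a tetracycline-controlled transactivator. All carried barcoded piggyBac reporters with the promoter of the mouse phosphoglycerate kinase gene (mPGK), a housekeeping promoter, and all came from the part of a transfected population that was sorted for low eGFP signal, so the integrations stand for that part only. Per the labels' protocols, cells grew for some days after the sort, small pools were then isolated and expanded, and each pool was split into 2 cultures that grew apart before RNA and DNA were taken. The 2 cultures are technical replicates of a pool with no other treatment, and the 6 pools have the same genotype.

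The assay, TRIP (short for the parallel integration of many reporters), gives every reporter its own short random barcode, so that the output of a promoter that is the same everywhere can be compared between genomic positions. The barcode count in RNA is divided by the count in genomic DNA because a founder cell that divided more often leaves more copies of its barcode. The DNA share therefore stands for the size of a clone, but it also holds the number of copies of a barcode in a cell and how well that barcode is amplified, and these cannot be told apart in the counts.

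The barcodes of the largest integration of each pool are shown first, because silent and active reporters stand side by side among them and the barcode is the only sequence that differs between reporters. Letters in capitals mark G and C, and positions are those listed on mm9.
mPGK-A, chromosome 2, position 17664393, plus strand: aaGtaatCCCaaCtaC
mPGK-B, chromosome 2, position 45646603, plus strand: attCatGaaaGCCatt
mPGK-C, chromosome 7, position 82864234, minus strand: CCCaaaCttGGGtCtt
mPGK-D, chromosome 1, position 75591906, minus strand: CtaaaaCCCttGGaCt
mPGK-E, chromosome 11, position 55561974, minus strand: tGGCttttaCaattta
mPGK-F, chromosome 15, position 73728336, minus strand: taCaCCCCaGatCatt

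The 3 members with the highest ratio of RNA to DNA are marked High below. Those marked Low, beside the largest integration of mPGK-D, had the lowest ratios and are among 7 members without an RNA read. No RNA count separates the ratios of these 7, which differ by DNA count and by pool. The barcodes are shown because they bound the range of ratios found in large clones.
High, mPGK-D, chromosome 8, position 91530937, plus strand: aCtatatGatttaGtG
High, mPGK-B, chromosome 8, position 14009477, minus strand: CaattGtCaatCatGt
High, mPGK-D, chromosome 16, position 23303216, minus strand: atGaCGtCtaGttGtt
Low, mPGK-A, chromosome 9, position 48974348, minus strand: CaGtCCCaGtGaaGtC
Low, mPGK-A, chromosome 16, position 45213782, minus strand: CaaCGaaGttCttCCC

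The members held a small but uneven part of the DNA of their pools. Their summed DNA share was 11.1% in mPGK-A, 9.27% in mPGK-B, 14.97% in mPGK-C, 8.33% in mPGK-D, 9.72% in mPGK-E and 9.82% in mPGK-F, with a mean of 10.5% ± 2.35 (SD, n = 6 pools). The same integrations gave 7.89%, 9.20%, 8.93%, 8.24%, 6.54% and 8.51% of the RNA reads of these pools in the same order, with a mean of 8.22% ± 0.946 (SD, n = 6 pools). The RNA held was below the DNA held in every pool, from 0.597 times in mPGK-C to 0.992 times in mPGK-B. DNA totals ran from 3386477 to 3693449 reads per pool and culture and RNA totals from 2880244 to 3508366, over the listed barcodes. Summed over the cultures, the median member had 11161 reads in DNA and 4065 in RNA, against 1628 and 538 in the rest, and no member had fewer than 3034 DNA reads in a culture.

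Large clones were not set apart from the others by a gap, except at the very top of mPGK-C and mPGK-F. The median member share ran from 0.122% in mPGK-D to 0.268% in mPGK-C, which was 4.98 and 10.8 times the median of the rest in those pools. The last member and the first integration outside the top 2% had 0.139% and 0.137% in mPGK-A, 0.121% and 0.121% in mPGK-B, 0.219% and 0.218% in mPGK-C, 0.105% and 0.105% in mPGK-D, 0.123% and 0.122% in mPGK-E, and 0.128% and 0.128% in mPGK-F. The choice of members thus cut a continuous slope in all 6 pools. The largest integration held 0.389% of the DNA in mPGK-A, 0.263% in mPGK-B, 1.35% in mPGK-C, 0.289% in mPGK-D, 0.278% in mPGK-E and 0.633% in mPGK-F. In mPGK-C it was 54.8 times the median of the rest, and in mPGK-D 11.8 times. Of the 6 integrations with a share over 0.4%, 5 lay in mPGK-C.

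**Figure D1:**
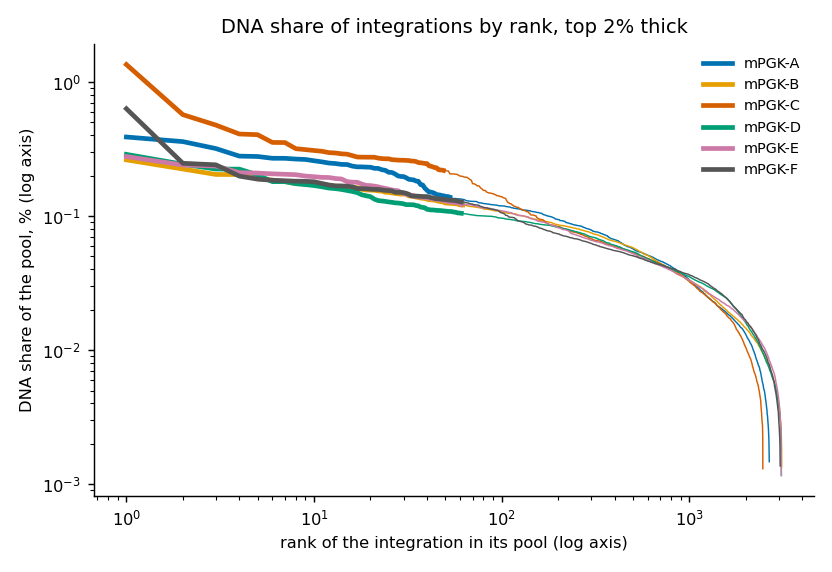
DNA share of the pool in % (log axis) against the rank of each integration on chromosomes 1 to 19 in its pool (log axis), with a line for each of the 6 pools and the members drawn thick. The line of mPGK-C starts at 1.35% and stays above those of the other pools over the members, and no line shows a step where the members end.

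DNA shares of large clones were alike in the cultures of a pool, which had grown apart. The median absolute difference in DNA share between the cultures was 0.14 on the log2 scale in the members and 0.30 in the rest. The share differed by more than 1.5-fold in 2 of 347 members (0.576%) and in 23.3% of the rest, and by more than 2-fold in 0 of 347 members, which allows a share of up to 0.865%, and in 7.37% of the rest. When each culture was ranked by itself, the top 2% lists of the 2 cultures shared 276 of 347 integrations, 79.5% of each list, from 72.1% in mPGK-D to 87.8% in mPGK-C. Of the members, 276 were in both lists, 69 in a single list and 2 in neither. The farthest fall was in mPGK-D, where an integration of the top 2% in culture 1 ranked 251 of 3099 in culture 2. These values come from the DNA counts that the ranking used and carry no test.

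The 3 members whose DNA share differed most between cultures still differed by little. The integration at chromosome 4, position 114337719 in mPGK-A had 3927 DNA reads in culture 1 and 6404 in culture 2, a 1.58-fold higher share in culture 2. At chromosome 15, position 98859593 in mPGK-B, 5272 and 3491 DNA reads were counted, a 1.57-fold higher share in culture 1. At chromosome 4, position 106167675 in mPGK-D, 5318 and 3682 reads gave a 1.49-fold higher share in culture 1. Their RNA counts were 662 and 562 reads in the first, 7554 and 8009 in the second, and 2131 and 2620 in the third. As a share of the RNA total, the first and the third moved against their DNA share and the second moved with it.

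**Figure D2:**
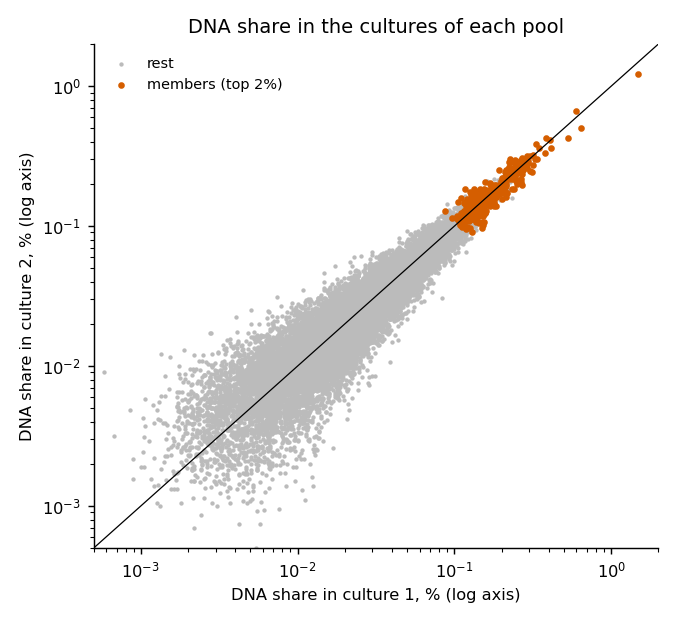
DNA share in culture 2 against culture 1 in % (both axes log), with a point for each integration, members in orange, the rest in grey and the line of equal shares in black. The members lie close to the line, with 2 of 347 beyond a 1.5-fold difference, and the scatter widens toward small shares.

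Output of the reporter in the largest clone of each pool ranged from no RNA read to a level above the pool median. Ratios are given as the log2 of the RNA share over the DNA share, with 0.5 reads added to the RNA count, averaged over the cultures and relative to the median of the pool. The largest integration of mPGK-A had 14078 and 12648 DNA reads and 7158 and 8130 RNA reads in cultures 1 and 2, 1.65-fold above the pool median. That of mPGK-F had 21519 and 24686 DNA reads and 10008 and 12153 RNA reads, 1.26-fold above the median, and was not called different from it (edgeR quasi-likelihood test, Benjamini-Hochberg adjusted p = 0.0711). Both were active in both cultures.

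In the other 4 pools, the ratio of the largest integration was over 16-fold lower than the median. That of mPGK-C, which held 1.35% of the DNA of its pool (1.47% and 1.23% in the cultures), had 52349 and 44845 DNA reads but 16 and 33 RNA reads, a ratio 752-fold below the median. That of mPGK-D had 10303 and 10132 DNA reads and no RNA read in either culture, at least 2112-fold below the median when 3 reads are taken as the limit that a count of 0 allows in each culture. That of mPGK-B had 8741 and 9994 DNA reads, with 0 RNA reads in culture 1 and 1 in culture 2. In mPGK-E, 11340 and 8725 DNA reads stood beside 108 and 248 RNA reads, 20.9-fold below the median. All 4 were low in both cultures.

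Members without RNA reads were also found further down the ranking. No RNA read was found in either culture at 7 of 347 members (2.02%, 95% exact interval 0.815% to 4.11%) and at 174 of 17153 of the rest (1.01%). The interval covers counting of integrations only, and PCR reads without molecular identifiers are not independent molecules. Beside the largest of mPGK-D, the second largest of that pool, at chromosome 3, position 156961124, had 7711 and 9565 DNA reads and no RNA read. In mPGK-A, the integration at chromosome 9, position 48974348 had 8755 and 9825 DNA reads and no RNA read (at least 2104-fold below the median), and that at chromosome 16, position 45213782 had 8442 and 7493 DNA reads and none (at least 1804-fold below). For the 7 members without RNA reads, the bound ran from 948-fold to 2112-fold below the pool median. Their DNA was well above that of most integrations, so these bounds reach lower than a count of 0 allows at the median of the rest.

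All other integrations near these silent members gave RNA reads, but so did most integrations. Of the rest, 1.01% had no RNA read and 50.1% were below their pool median, so the neighbours do not set these surroundings apart. Within 100 kb of the 7 members without RNA reads lay 14 other integrations, 6 of them above the median of their pool and 0 without an RNA read, while 3 of the 7 had no neighbour there. Beside the silent reporter at chromosome 1, position 75591906, the 3 neighbours ran from -0.30 to 2.04 on the log2 scale with a median of 1.63. At chromosome 9, position 48974348, the 5 neighbours ran from -3.07 to 2.996 around a median of -0.56. The members were chosen here for their low RNA count, so these values are a description.

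In 5 members, RNA reads were found in a single culture. At chromosome 10, position 43188054 in mPGK-A, with 9170 and 9143 DNA reads, 6 and 0 RNA reads were counted. At chromosome 13, position 111151354 in mPGK-A, with 7862 and 8830 DNA reads, the RNA counts were 0 and 6. At chromosome 1, position 187765324 in mPGK-E, with 8790 and 8259 DNA reads, they were 14 and 0, and at chromosome 8, position 80489004 in mPGK-F, with 5370 and 4833 DNA reads, 10 and 0. The fifth is the largest integration of mPGK-B. At such counts the ratio of a culture is set by a few reads. These 5 members were singled out after their values were seen. The same count in the rest is not given, so these 5 do not set large clones apart.

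At the other end, a few large clones gave a large part of the RNA of the members, which was 8.22% of the RNA of a pool on average. The integration at chromosome 8, position 91530937 in mPGK-D had 4068 and 3885 DNA reads and 52768 and 57257 RNA reads, 43.6-fold above the pool median, and held 1.75% and 1.76% of the RNA of the pool in the cultures from 0.112% of the DNA. The integration at chromosome 8, position 14009477 in mPGK-B had 6978 and 7571 DNA reads and 52907 and 56330 RNA reads, 19.8-fold above the median. That at chromosome 16, position 23303216 in mPGK-D had 5604 and 5195 DNA reads and 32892 and 34276 RNA reads, 19.6-fold above. These are the only 3 members (0.865%) more than 16-fold above the pool median, against 2.45% of the rest. In each pool, the 5 members with most RNA gave 36.8% (mPGK-A) to 48.0% (mPGK-D) of the RNA of the members. The 5 with most DNA held 11.7% (mPGK-B) to 21.5% (mPGK-C) of the members' DNA. The same measure in the rest is not given.

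Over all members, the median ratio was -0.06 on the log2 scale, with 178 of 347 (51.3%) below their pool median. From the 5th to the 95th percentile the members ran from -6.49 to 2.88, a 661-fold range, and the rest from -4.42 to 3.41, a 227-fold range, whereas the middle 50% spanned 6.56-fold in the members and 8.30-fold in the rest. Counts by distance from the pool median are given with the shares of the rest and carry no test. Within 4-fold of the median were 237 members (68.3%, rest 62.4%), and more than 4-fold above it 45 (13.0%, rest 17.4%). More than 4-fold below were 65 (18.7%, rest 20.2%), and more than 16-fold below 29 (8.36%, rest 6.45%). The 95% exact interval of the last, 5.67% to 11.8%, covers counting of integrations only and is no comparison with the rest. Among the members, DNA share and ratio ranked with a Spearman rho of -0.114 to 0.0568 in the 6 pools (49 to 62 integrations each, with the DNA count in both measures).

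Called against the median ratio of their pool by edgeR's quasi-likelihood test on raw counts (Benjamini-Hochberg adjusted over all barcodes of a pool, threshold 0.05), 145 members (41.8%) were higher and 152 (43.8%) lower. Of all 17857 integrations, 36.8% were called higher and 33.8% lower. In mPGK-B, 34 members were higher and 22 lower, and in mPGK-D 31 and 20. In mPGK-C, 15 were higher and 30 lower, while mPGK-A had 21 and 23, mPGK-E 22 and 29, and mPGK-F 22 and 28. The remaining 50 members were not called. The DNA counts that chose the members enter this test and are deeper in them, so nothing is read from the difference to all integrations.

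When the members were chosen from the DNA of 1 culture and the ratio was taken from the other, in both directions, their ratio did not differ from that of the rest beyond the spread between pools. The median of the members minus that of the rest was 0.17 in mPGK-A, 0.19 in mPGK-B, -0.83 in mPGK-C, 0.37 in mPGK-D, -0.31 in mPGK-E and -0.05 in mPGK-F, on the log2 scale. The medians of the members were higher in 3 pools and lower in 3, and the mean difference was -0.08 ± 0.43 (SD, n = 6 pools; two-sided exact sign-flip permutation test over pools, p = 0.781, Benjamini-Hochberg adjusted over 7 tests 0.911). With means in place of medians the difference was -0.39 ± 0.35, with the members lower in 5 of 6 pools (exact permutation p = 0.0625, adjusted 0.146). The smallest p that 6 pools allow in the exact permutation test is 0.03125, and a single test at that limit cannot pass the adjustment over 7 tests. The share of integrations more than 4-fold below the median was 19.1% in the members and 20.0% in the rest (difference -0.933 percentage points ± 5.08, SD, n = 6; exact permutation p = 0.688, adjusted 0.911). The share more than 4-fold above it was 14.1% and 17.8% (difference -3.64 points ± 5.90, SD, n = 6; exact permutation p = 0.25), with mPGK-C the lowest at 7.14% and mPGK-D the highest at 23.0%.

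Spread in output between members was larger than in the rest in all 6 pools but missed the threshold after adjustment, in a test added after the data had been seen. The SD of the ratio over integrations had a mean of 3.05 against 2.47 (difference 0.57 ± 0.48, SD, n = 6; exact permutation p = 0.03125, the smallest possible; adjusted over the 2 added tests 0.0625). The difference ran from 0.07 in mPGK-C to 1.35 in mPGK-A. It was 1.12 for the top 1%, 0.08 for the top 5% (exact permutation p = 0.438) and 0.50 with 5 reads added to the RNA counts in place of 0.5. Along the ranking, the SD fell from 2.67 ± 0.13 (SD, n = 6 pools) in the lowest 20% of DNA shares to 2.14 ± 0.20 between the 95th and 98th percentiles, and was 3.05 ± 0.46 in the top 2%. The lowest ratio that a count of 0 can give falls as the DNA count grows, and its part in the larger SD was not tested.

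**Figure D3:**
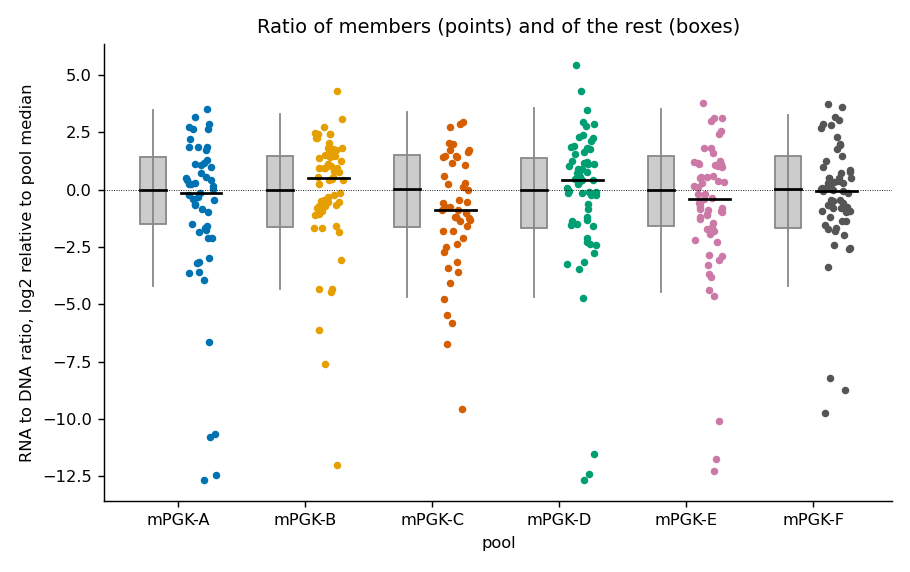
Ratio of RNA to DNA (log2, relative to the pool median, mean of both cultures) by pool, with a point for each member, a black line at the members' median, and for the rest a grey box over the middle 50%, a black median line and whiskers from the 5th to the 95th percentile. Most members lie within the whiskers, the medians stand on either side of 0, and 29 members lie below -4, down to -12.66.

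**Figure D4:**
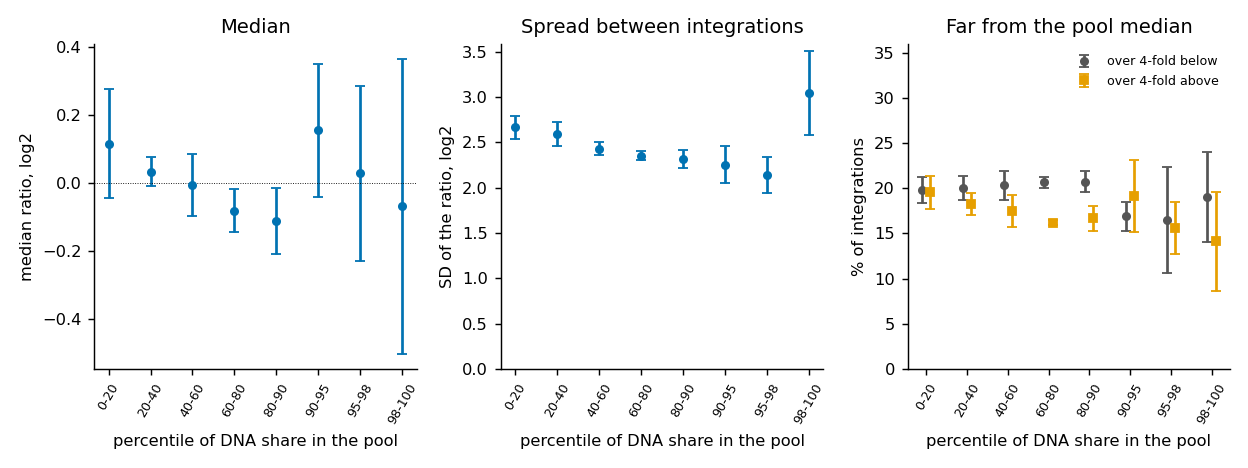
Median ratio (log2), SD of the ratio between integrations (log2) and percent of integrations more than 4-fold below or above the pool median, by percentile of DNA share in the pool, each ranked in 1 culture with the ratio from the other. Points are means over 6 pools and bars the SD between pools. The top 2% has a median of -0.07 and the largest SD, 3.05.

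The ratios of large clones in the 2 cultures contain the DNA counts that chose the members, so their agreement is given as a description and no p is read from it. It did hold a place among the 7 tests of the adjustment. Its place there lowers the adjusted p of local density, given below. The median absolute difference of the log2 ratio between cultures was 0.34 in mPGK-A, 0.26 in mPGK-B, 0.16 in mPGK-C, 0.18 in mPGK-D, 0.25 in mPGK-E and 0.19 in mPGK-F, with a mean of 0.23, against 0.44 in the rest. The mean of members minus rest was -0.21 ± 0.06 (SD, n = 6 pools). Read counts moved with it: the difference was -0.10 against the integrations of the rest with at least the median DNA share of their pool, with 5 of 6 pools below 0, and -0.07 where both cultures had 500 or more RNA reads, which 79.3% of the members and 34.02% of the rest had. The cultures ranked the members of a pool by ratio with a Spearman rho of 0.974 to 0.988, and the rest with 0.931 to 0.948.

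Large clones had a higher mean number of neighbouring integrations than the rest in all 6 pools, short of the adjusted threshold. The members had a mean of 2.83, 2.65, 3, 3.02, 2.69 and 2.87 other integrations of any pool within 100 kb in mPGK-A to mPGK-F, and the rest 2.49, 2.48, 2.48, 2.50, 2.43 and 2.43. The members were higher by 0.375 ± 0.146 (SD, n = 6; exact permutation p = 0.03125, the smallest possible; adjusted over 7 tests 0.109). With medians in place of means, the members were higher in 3 pools and equal to the rest in the other 3 (difference 0.417 ± 0.492, SD, n = 6; exact permutation p = 0.25, adjusted 0.35). Within 1 Mb the difference was 1.05 (higher in all 6 pools, exact permutation p = 0.03125), and within 10 kb it was 0.0723 (exact permutation p = 0.375). No neighbour within 100 kb was listed for 42 members (12.1%) and 17.7% of the rest, and 7 or more for 21 members (6.05%) and 5.09% of the rest.

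Measured relative to neighbours within 20 kb, the members stood lower than the rest in 5 of 6 pools without passing the test. The median over members of the ratio minus the mean ratio of the neighbours was positive in mPGK-A (0.09) and mPGK-B (0.14) and negative in the other pools. Of the members 163 had such a neighbour. The ratio of the members relative to their neighbours, minus that of the rest, was -0.10 in mPGK-A, 0.21 in mPGK-B, -1.23 in mPGK-C, -0.24 in mPGK-D, -1.09 in mPGK-E and -0.53 in mPGK-F, with a mean of -0.50 ± 0.57 (SD, n = 6; exact permutation p = 0.0938, adjusted 0.219). The difference was -0.86 for the top 1% (lower in 5 of 6 pools; exact permutation p = 0.0625) and -0.13 for the top 5%, with 3 pools on each side (exact permutation p = 0.312). With members chosen over both cultures, 13 of 163 (7.98%) lay more than 16-fold below the mean of their neighbours, against 5.06% of the rest that had a neighbour. Members and the mean of their neighbours ranked with a Spearman rho of 0.307 over these 163, and the rest with 0.423 over 7015, values that share neighbours and positions.

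No position was listed more than 1 time, so the planned count of sites hit again at the same listed position in another pool was 0 throughout (0 of 347 and 0 of 17153). Whether such repeats were left out when barcodes were filtered is not given, so nothing is read from this 0. Sites hit within a few bases of each other were found. Of 68 pairs of integrations from different pools within 10 bp of each other, 64 lay 1 bp apart on opposite strands, and piggyBac inserts at TTAA, which reads the same on both strands. A member was part of 5 such pairs (1.44% of members; 0.764% of the rest had an integration of another pool within 10 bp), all 1 bp apart on opposite strands. In all 5, the other integration was outside the top 2% of its pool.

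These 5 pairs show reporters listed 1 bp apart in clones of different size, and they were singled out for that after their values were seen. Whether both reporters of a pair lie at the same TTAA was not checked in the genome sequence. At chromosome 10, positions 19793307 and 19793306, the member in mPGK-D (6550 and 6231 DNA reads, 2450 and 2288 RNA reads) and its partner in mPGK-F (1861 and 2184 DNA reads, 688 and 909 RNA reads) had ratios of 0.23 and 0.04. At chromosome 14, positions 22303533 and 22303534, the member in mPGK-C (14441 and 15061 DNA reads, 38255 and 32903 RNA reads) had a DNA share 214 times that of its partner in mPGK-A (23 and 110 DNA reads, 162 and 171 RNA reads), and the ratios were 2.72 and 3.26. The first pair was close in output. In the second, the partner had 23 and 110 DNA reads beside similar RNA counts. Its ratio of 3.26 is thus a mean of unlike cultures, and closeness in output is uncertain there.

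In the other 3 pairs the outputs were far apart. At chromosome 4, positions 82924286 and 82924285, the member in mPGK-D (5339 and 5249 DNA reads, 1513 and 1539 RNA reads) was 89.5-fold above its partner in mPGK-E, which had 348 and 526 DNA reads and 0 and 4 RNA reads. At chromosome 6, positions 94724338 and 94724337, the member in mPGK-E (6426 and 5037 DNA reads, 3993 and 3928 RNA reads) was 7.38-fold below its partner in mPGK-D (1028 and 1242 DNA reads, 5142 and 5533 RNA reads). At chromosome 7, positions 144601166 and 144601167, the member in mPGK-F (5521 and 5794 DNA reads, 2738 and 2847 RNA reads) was 11.0-fold below its partner in mPGK-A (185 and 118 DNA reads, 725 and 738 RNA reads). Over the 5 pairs, the member was the lower in 3 and the higher in 2. The barcodes and the strands differ within each pair, and counting error is largest for the partners with few reads.

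Pairs of members near each other were counted with no expected number beside them, so nothing is read from how many there were. Whether 2 integrations of a pool belong to the same clone cannot be told from the counts. No 2 members lay within 10 kb, 10 pairs lay within 100 kb (1 of them within a pool) and 62 within 1 Mb (9 within a pool). At chromosome 6, positions 30996984 and 31065215, 68231 bp apart, the members of mPGK-B (6586 and 6298 DNA reads, 633 and 731 RNA reads) and mPGK-A (8046 and 9072 DNA reads, 962 and 922 RNA reads) were both low, with ratios of -1.84 and -1.65. At chromosome 15, positions 90770866 and 90859797, members of mPGK-B (4832 and 4984 DNA reads, 10 and 8 RNA reads) and mPGK-A (8136 and 6391 DNA reads, 226 and 176 RNA reads) were both far below their pool medians and 15.8-fold apart. At chromosome 9, positions 108167342 and 108210699, the members of mPGK-E (ratio 1.20) and mPGK-D (ratio -1.37) lay on either side of the median. These pairs were chosen after their values were seen.

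Within 1 kb of an integration of another pool lay 20 members (5.76%) and 6.00% of the rest. The barcode of 16 members (4.61%) was also listed in another pool at another position (rest 5.75%), and none of these barcodes was a member in 2 pools.

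Members were found on all 19 chromosomes tested and no chromosome passed the test. A single chromosome could not pass it, because the smallest exact permutation p of 0.03125 does not survive the adjustment over 19 chromosomes. The test therefore does not show that the chromosomes are alike. Chromosome 10 held 29 members (8.36%, 95% exact interval 5.67% to 11.8%), where the share of the rest, 5.52%, would give 19.2, and its share was higher in 5 of 6 pools (exact sign-flip permutation test, p = 0.188, adjusted over 19 chromosomes 0.891). Chromosome 2 held 19 members where the share of the rest would give 26.8, and was lower in 5 of 6 pools (exact permutation p = 0.188, adjusted 0.891). The smallest unadjusted p over the 19 chromosomes was 0.125, on chromosome 11 with 17 members against 21.2, and 0 chromosomes had an unadjusted p under 0.05. The fewest members, 8, lay on chromosome 19. The interval for chromosome 10 covers counting of integrations only, while pools are the units of the test.

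The output of the members by chromosome rests on 8 to 29 integrations each. On chromosome 11 the 17 members had a median ratio of -0.52, from -12.27 to 2.25, while the rest of that chromosome had a median of 0.68. On chromosome 12 the 15 members had a median of -1.52 and the rest -0.29, and on chromosome 10 the 29 members had a median of 0.50 and the rest 0.07. These medians were not tested.

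**Figure D5:**
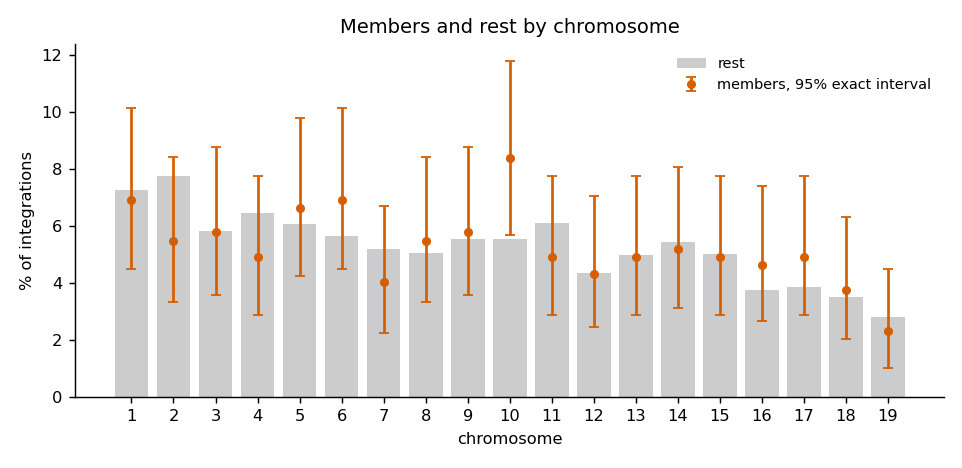
Percent of members on each of the 19 chromosomes (orange points, bars the 95% exact interval over 347 members) and percent of the rest (grey bars from 0). Chromosome 10 has the highest share of members, 8.36% against 5.52% of the rest. No chromosome passed the test over pools, which a single chromosome cannot pass after adjustment.

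The sequence features that the ranking did not use differed little. Of the members 174 (50.1%) and of the rest 49.2% lay on the plus strand. Among the 29 members more than 16-fold below the pool median, 19 (65.5%) were on the minus strand, against 48.6% of the 1106 such integrations of the rest, a count made after the values were seen and not tested. Barcodes of the members held 40.4% G and C on average and those of the rest 41.4%, a difference of -0.991 percentage points ± 1.47 (SD, n = 6 pools; lower in 4 of 6; exact permutation p = 0.188, adjusted 0.328). Members made up 2.37% of integrations whose barcode had under 30% G and C and 1.82% of those with 50% or more. No barcode of a member was a single edit away from another barcode of its pool (0 of 347, and 0 of 17153 in the rest).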

How the data were processed

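In the 6 pools, barcodes were counted in RNA and genomic DNA of 2 cultures each (72 libraries with the mapping libraries, 2 PCRs a culture). The authors deposited whole-number read counts, not normalized, for each barcode and culture, with the mapped position. The submitters' processing notes name Bowtie2 2.0 and the build mm9. The sources used here do not give how PCRs were combined, how barcodes were filtered, or whether positions start at 0 or 1. Genome annotation of mm9 was not used here, so no genes are named. Totals are sums over listed barcodes.

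Shares, ratios (pseudocount of 0.5 RNA reads, pool median subtracted) and exact sign-flip tests over pools used Python 3.11.15 with pandas 2.3.3, numpy 2.4.6 and scipy 1.17.1. For RNA against DNA counts in a pool, R 4.3.3 and edgeR 4.0.16 were used (filterByExpr, TMM, shifted by 0.23 to 0.27 log2 so that the pool median is 0). DESeq2 1.42.0 was an alternative. The edgeR test was tried on simulated counts, without DESeq2. The sign-flip test was tried on the ratios of these data shuffled within pools. Replicate numbers mark the same culture, per the labels; deviations of RNA and DNA correlated at -0.00212 to 0.0576. Cultures share a pool, so pools are the units of the tests. Named integrations are the largest of each pool, the 3 highest and 3 lowest ratios, the members beside the threshold and the 3 largest DNA differences; others are said to be chosen after their values were seen. Members and tests were chosen with earlier results of these data known.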

Additional observations from a re-analysis of the deposited data

Results flagged for a closer look

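Of 17 values per pool that were examined for a pool far from the other 5, mPGK-C stood apart in 2, and chance gives such a gap in about 1 of 20 values. Its largest integration held 1.35% of the DNA of the pool, where the largest of the others held 0.263% to 0.633%. Its last member inside the top 2% had a share of 0.219%, where the others had 0.105% to 0.139%. Both values come from the DNA counts that ranked the integrations, and mPGK-C was also the pool with the fewest listed integrations, 2518.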

How the results depend on the processing

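No difference between members and rest passed the adjusted threshold of 0.05, and no chromosome did, in any setting tried for the planned results. The ratio of members minus rest changed sign with the top 1% (0.0267), the top 5% (0.0101) and without mPGK-C; leaving out each pool or culture gave -0.208 (culture 2 alone) to 0.0738 (without mPGK-C), and means gave -0.395. The ratio relative to neighbours ran from -0.856 (top 1%) to -0.127 (top 5%). In culture 2 alone it was -0.519 with all 6 pools lower. There the same DNA counts chose the members and entered the ratio, so the value carries no test. The share more than 4-fold below the median changed sign with a pseudocount of 5 reads (0.287 percentage points), the top 1% (1.47) and in culture 2 alone (0.290); without each pool it ran from -2.36 to 0.412, the latter without mPGK-F. The cause was not tested. The difference in local density ran from 0.345 to 0.417 without each pool, and 5 pools cannot reach a p below 0.0625. With members chosen over both cultures, where DNA counts enter both the choice and the ratio, the share more than 4-fold above the median differed by -4.64 points and the SD by 0.57, given as values with no test.

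The replicate block gave 145 members higher and 153 lower and another call for 5 members, 0 of them opposite. DESeq2 gave 149 and 155, TMM without the shift 124 and 164, and no filter 145 and 152. Using each barcode and position a single time was not run, since no position is listed again; leaving out barcodes of several pools took its place and was chosen after seeing the data, as were the distances of 10 bp and 1 kb to other pools. Medians gave 0.417 for local density, with 3 pools higher and 3 equal. A single culture gives no difference between cultures and leaves edgeR without residual degrees of freedom, so these were not run. Depth limits the silent members to bounds, and 6 pools limit every exact permutation test to p = 0.03125. A single result at that limit passes none of the adjustments used here.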
